A study of Mus musculus with 6 samples.

Results

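The AP-1 transcription factors are dimers of basic leucine zipper proteins that bind short palindromic DNA sites. Fos family proteins pair with Jun family proteins, Jun proteins can also pair with one another, and Batf, Batf3 and Atf3 are related partners that can take the place of a Fos protein. Several of these genes are immediate early genes, transcribed within minutes of serum, growth factor or stress signals, and in the skeleton Fos is known for its role in osteoclasts and Fosl2, Fosl1 and Junb for roles in osteoblasts. The accessible chromatin of 10 such genes is described here: Fos, Fosb, Fosl1 and Fosl2 of the Fos family, Jun, Junb and Jund of the Jun family, and Batf, Batf3 and Atf3. They were 10 of the 21853 protein-coding genes of the mouse annotation. The choice was made by name and used no measured value, but earlier results of these data were known.

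ATAC-seq, in which a transposase cuts and tags open chromatin, was run on skeletal stem and progenitor cells (SSPCs) from C57BL/6 mice, with 3 young and 3 middle-aged libraries and no treatment. The cells were plated from tibial and femoral marrow in serum-containing medium and used at passage one, so both groups are cultured adherent marrow cells rather than cells taken straight from bone. The labels give age in words only, and the study's methods describe its C57BL/6 mice as young adults and as animals of about a year. Nothing ties a library to 1 mouse, so every p-value measures only the spread between libraries. What was measured is a list of called peaks per library, in mm10. The lists held 35953, 43941 and 27628 peaks in young 1, 2 and 3, and 46364, 46745 and 48344 peaks in middle-aged 1, 2 and 3. Young 3 stood apart as the shortest list, and all 3 middle-aged lists were longer than any young one. No read totals were used here. The genome-wide background solved from each list was 3.75, 2.83 and 1.65 in young 1, 2 and 3. It was 2.54, 2.40 and 2.79 in middle-aged 1, 2 and 3. Young 1 thus had the highest background and young 3 the lowest. The part of depth in the list lengths was not tested.

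A gene was taken to have a TSS peak where a called peak overlapped the 1 kb on either side of any of its protein-coding start sites (TSSs). A locus was the gene body with the 50 kb upstream of it. Each peak was given its percentile rank by significance within its own list, where 100 is the most significant peak, and its fold over the local background as the peak caller gave it. A rank within a list depends on how many weaker peaks that list also holds, and 93.9% of the 10569 genes with a TSS peak in all 6 libraries had a higher mean rank in the middle-aged libraries. A second rank was therefore computed among the 22403 regions called in all 6 libraries only, and is called the shared-region rank below. With 3 libraries against 3, the exact permutation test (two-sided) cannot give a p below 0.1, so no single value here could pass 0.05.

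The labelled cell type was checked against marker genes. In single libraries, 49.5% to 58.0% of all protein-coding genes had a TSS peak. Of 8 SSPC markers, 3 to 6 had a TSS peak in the young libraries and 5 or 6 in the middle-aged ones. Kitl, Ebf3 and Foxc1 had one in every library, and Lepr and Prrx1 had none in any. Pdgfra had one in 1 young and 3 middle-aged libraries. Of 10 hematopoietic and macrophage markers, 9 or 10 had a TSS peak in each young library and 9 in each middle-aged library, with Ptprc (the gene of CD45) and Spi1 (the gene of PU.1) in all 6. Csf1r, the receptor gene of macrophage growth, had one in 2 young and no middle-aged libraries. The other 9 were called in all 6 and all had a higher mean whole-list rank in the middle-aged libraries, as did 93.9% of all genes. Of the 9, 4 (Adgre1, Fcgr1, Laptm5 and Tyrobp) were higher without overlap, as were 30.6% of all genes. By shared-region rank 4 of the 9 were higher and 5 lower in the mean. Adgre1 was apart and higher by 12.6, while Spi1 (higher by 18.1) and Ptprc (-13.0) overlapped between ages. Of 6 endothelial markers, 2 had a TSS peak in each young library and 2 to 4 in the middle-aged ones. Of 4 T cell markers, 1 had a TSS peak in each library (Cd3d). Markers outside the hematopoietic list also differed by shared-region rank. Ebf3 (30.4) and Cd3d (23.9) were apart and higher in the middle-aged libraries, as were 9.37% of all genes. Foxc1 differed by 0.73, Cdh5 by -6.19 and Kitl by -7.88, each with overlap. AP-1 genes are used by all of these cell types, and the part of cell composition in the values below was not tested.

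The 7 stretches of the mm10 reference printed here lie under the members' peaks and were chosen because the results below turn on them. Each was read from the RefSeq genome of GRCm38 and is written 5′ to 3′ on the strand of its member gene. Promoters of 9 of the 10 members were also in the RefSeq promoter table, and all 9 were equal to the genome. Motifs were searched on both strands, and the capitals mark them. They are TGAGTCA, the AP-1 site; TGACATCA, the variant site of the Jun promoter; GGGCGG, the GC box; and the CArG box, which serum response factor binds. TGACGTCA, the cAMP response element, was searched as well and did not occur in these stretches. Overlapping matches were all kept.

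The Atf3 stretch (chr1:191183341-191183540, minus strand) is shown for the largest TSS difference between ages among the members by shared-region rank, the Jun stretch (chr4:95052223-95052372, minus strand) for the highest-ranking TSS peak, and the Fos stretch (chr12:85473550-85473849, plus strand) because the summit lay in or near its CArG box in a pair of libraries. The Fosb stretch (chr7:19310256-19310455, minus strand) surrounds the summit of its upstream TSS region. The other stretches surround the summits of the strongest Fos region away from the promoter (chr12:85455318-85455517, plus strand), of the Jund region with the largest whole-list rank difference (chr8:70682258-70682407, plus strand) and of the one region called in all 3 middle-aged and in no young libraries (chr19:5406687-5406836, plus strand).
Atf3 promoter: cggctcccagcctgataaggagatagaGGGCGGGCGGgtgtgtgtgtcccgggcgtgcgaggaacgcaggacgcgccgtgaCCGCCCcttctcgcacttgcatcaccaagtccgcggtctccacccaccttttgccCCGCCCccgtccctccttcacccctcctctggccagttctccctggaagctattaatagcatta
Jun promoter: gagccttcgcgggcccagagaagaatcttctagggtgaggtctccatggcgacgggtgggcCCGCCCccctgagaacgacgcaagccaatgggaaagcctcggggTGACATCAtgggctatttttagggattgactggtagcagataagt
Fos promoter: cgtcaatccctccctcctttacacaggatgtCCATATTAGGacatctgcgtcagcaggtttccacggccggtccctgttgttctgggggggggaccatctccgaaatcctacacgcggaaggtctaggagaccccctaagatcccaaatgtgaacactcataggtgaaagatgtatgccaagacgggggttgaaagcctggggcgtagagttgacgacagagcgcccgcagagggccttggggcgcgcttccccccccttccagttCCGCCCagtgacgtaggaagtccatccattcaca
Fosb promoter: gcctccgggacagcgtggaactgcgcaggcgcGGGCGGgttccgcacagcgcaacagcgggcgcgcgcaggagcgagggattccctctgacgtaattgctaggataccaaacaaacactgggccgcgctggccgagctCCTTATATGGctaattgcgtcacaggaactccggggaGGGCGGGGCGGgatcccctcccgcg
Fos upstream region: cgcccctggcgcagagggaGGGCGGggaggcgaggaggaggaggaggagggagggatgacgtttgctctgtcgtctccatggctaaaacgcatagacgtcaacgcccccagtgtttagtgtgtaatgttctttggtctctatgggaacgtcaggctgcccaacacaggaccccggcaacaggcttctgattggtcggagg
Jund upstream region: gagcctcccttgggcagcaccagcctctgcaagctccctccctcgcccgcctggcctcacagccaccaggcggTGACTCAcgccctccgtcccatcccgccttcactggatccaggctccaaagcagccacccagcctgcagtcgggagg
Fosl1 upstream region: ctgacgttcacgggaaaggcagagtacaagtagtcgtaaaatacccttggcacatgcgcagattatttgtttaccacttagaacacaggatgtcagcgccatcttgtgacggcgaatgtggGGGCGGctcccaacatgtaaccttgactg

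Most members had accessible promoters at both ages. A TSS peak was called for 9, 9 and 7 of the 10 members in the young libraries and for 8 in each middle-aged library (8.33 ± 1.15 against 8 ± 0, SD, n = 3, exact permutation p = 1). For comparison, 49.5% to 56.8% of all protein-coding genes had a TSS peak in the young libraries and 57.4% to 58.0% in the middle-aged ones. Fos, Fosb, Fosl2, Jun, Junb, Jund and Atf3 were called in all 6. Batf had no TSS peak in any library. Fosl1 and Batf3 had weak ones in some libraries of each age.

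**Figure D1:**
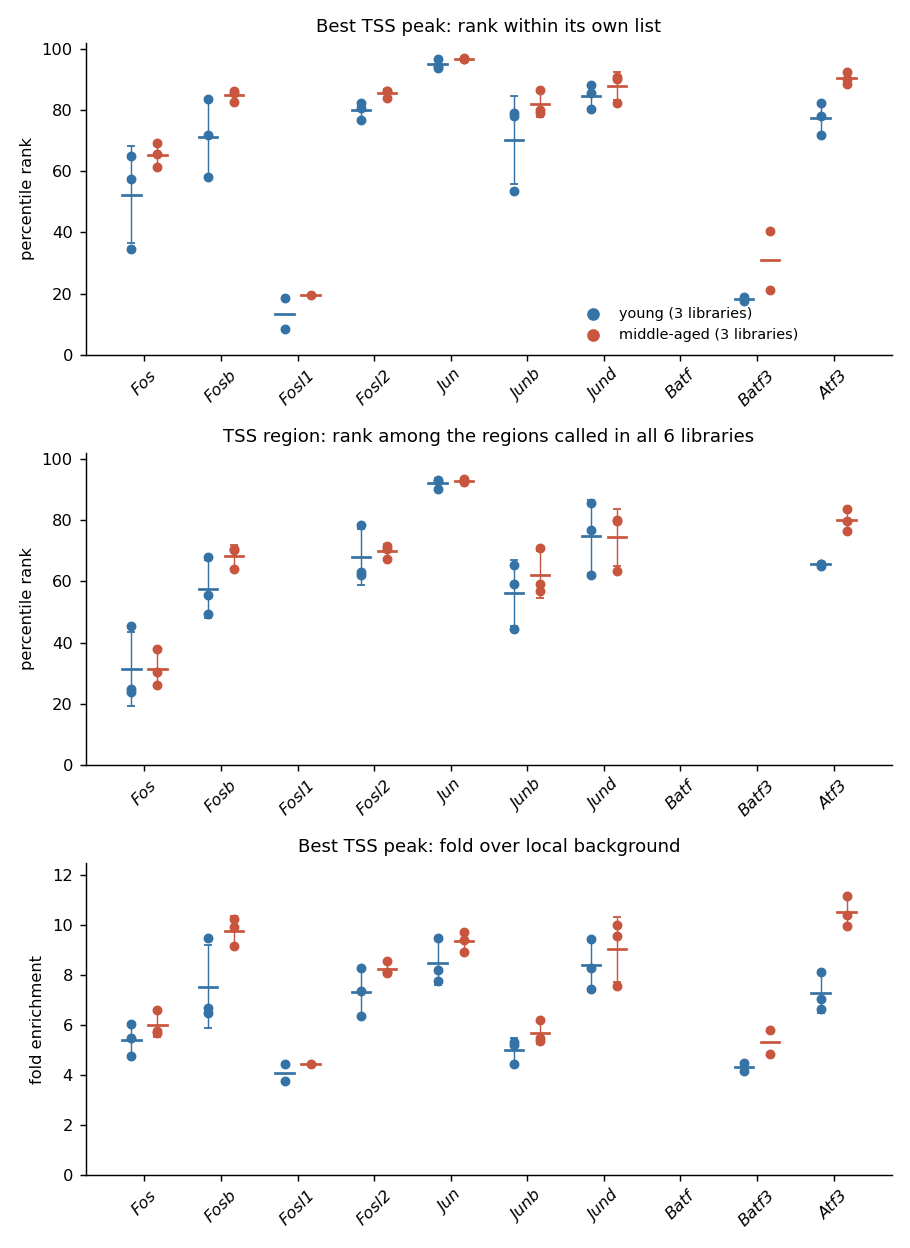
TSS peaks of the 10 members by library (x axis: gene, blue young, red middle-aged, 1 point per library, bars mean and SD where all 3 libraries of an age had a peak). The panels give, from top to bottom, the percentile rank within each list, the percentile rank among the 22403 regions called in all 6 libraries, and the fold over local background; only the Atf3 points are apart between ages in all 3 panels.

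Among the 7 members called in all 6 libraries, the order by mean rank ran from Jun (95.8) through Jund (86.2), Atf3 (84.0), Fosl2 (82.8), Fosb (78.0) and Junb (76.1) to Fos (58.9). The median gene with a TSS peak in all 6 had a mean rank of 84.9, so Jun and Jund lay above it, Atf3, Fosl2, Fosb and Junb below it, and Fos at the 11.97th percentile of those genes. From Jund to Junb, each gene and the next in this order had overlapping values across libraries and cannot be ranked apart. Jund did rank above Junb in each of the 6 libraries. Jun ranked highest and Fos lowest of the 7 in each of the 6 libraries.

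Fos, the founding member of its family and a serum-induced gene, has 1 TSS on chromosome 12 at position 85473890. Its TSS peak ranked at 65.1, 57.4 and 34.6 in the young libraries and at 61.4, 69.2 and 65.6 in the middle-aged ones. The young 3 library was low and the groups overlapped (52.4 ± 15.9 against 65.4 ± 3.90, exact permutation p = 0.2). By shared-region rank the mean difference was 0.17 (31.3 ± 12.1 against 31.5 ± 5.92, exact permutation p = 1). The summit lay between -11 and -4 bases from the TSS in young 1, young 2, middle-aged 1 and middle-aged 2. In middle-aged 3 it lay at -302, inside the CArG box at -309 to -300 shown above, and in young 3 at -337, upstream of that box, so the shift occurred once at each age.

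Fosb, which encodes a Fos protein and shorter splice forms, had a pair of TSS regions. The best peak lay inside the first part of the gene, 870 to 932 bases downstream of a TSS, in 5 of the 6 libraries, and at -336 in young 3. Its ranks were 71.9, 83.6 and 58.0 in the young libraries and 85.7, 82.6 and 86.1 in the middle-aged ones. Young 2 lay within the middle-aged range (71.2 ± 12.8 against 84.8 ± 1.91, exact permutation p = 0.2). By shared-region rank the best TSS region differed by 10.6, with overlap (57.6 ± 9.49 against 68.2 ± 3.70, exact permutation p = 0.2). The upstream region, whose summit lies at -304 bases and whose window holds a CArG box, ranked at 51.1, 57.8 and 58.0 in the young and at 68.6, 75.6 and 70.6 in the middle-aged libraries. These ranks did not overlap, but the shared-region ranks of the same region did, with a mean difference of 8.32.

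Fosl1 encodes Fra-1 and Fosl2 encodes Fra-2, Fos proteins without the strong transactivation domain of Fos. At Fosl1 a TSS peak was called in young 1, young 2 and middle-aged 1, at ranks of 8.5, 18.4 and 19.5, which are near the bottom of their lists. No Fosl1 TSS peak was called in the other libraries. At Fosl2 the TSS peak ranked at 76.8, 80.6 and 82.4 in the young and at 84.1, 86.3 and 86.3 in the middle-aged libraries, which did not overlap (79.9 ± 2.83 against 85.6 ± 1.31, exact permutation p = 0.1). By shared-region rank the Fosl2 groups overlapped (68.0 ± 9.12 against 69.8 ± 2.32, exact permutation p = 0.8). An AP-1 site began 109 bases from the Fosl2 summit, in the direction of rising coordinates.

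Jun, the most frequent partner of Fos proteins and a gene whose product binds its own promoter, had the highest-ranking TSS peak of the members by significance. It ranked at 93.9, 96.5 and 94.3 in the young and at 96.8, 96.5 and 96.5 in the middle-aged libraries (94.9 ± 1.44 against 96.6 ± 0.177, exact permutation p = 0.2). The groups overlapped at young 2, and by shared-region rank the mean difference was 0.81 (exact permutation p = 0.7). The summit lay between -157 and -86 bases from the TSS in the 6 libraries. The variant AP-1 site lies at -45 to -38 from the TSS and is seen in capitals in the Jun stretch. Part of the stretch is also an exon of the noncoding gene Junos on the other strand. The variant site occurred in the 250 bases upstream of 2.93% of 32851 RefSeq promoters.

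Junb, a Jun protein that can hold back Jun, had TSS regions at about -0.09 and -1.3 kb. Its best TSS peak lay at the farther one in 5 libraries and at the nearer one in middle-aged 2. The best peak ranked at 78.1, 79.0 and 53.6 in the young and at 80.05, 79.1 and 86.5 in the middle-aged libraries. These did not overlap, with young 2 just below middle-aged 2 (70.3 ± 14.4 against 81.9 ± 4.05, exact permutation p = 0.1). Followed as 1 region each, both Junb regions overlapped between ages, with shared-region differences (middle-aged minus young) of -1.10 and -1.44. The best Junb region per library differed by 5.99 on that scale (exact permutation p = 0.6).

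Jund, the broadly expressed Jun protein, had a TSS peak at ranks of 85.4, 80.5 and 88.1 in the young and 90.1, 82.4 and 90.7 in the middle-aged libraries (84.7 ± 3.88 against 87.7 ± 4.64, exact permutation p = 0.5). The groups overlapped, and the shared-region difference was -0.33 (exact permutation p = 1). The 250 bases upstream of its TSS held a cAMP response element at -214 to -207, which 1.55% of RefSeq promoters hold.

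Atf3 is a stress-induced factor that pairs with Jun proteins and often represses. It was the member whose best TSS peak did not overlap between ages by whole-list rank, shared-region rank or fold. Its TSS peak ranked at 78.1, 82.4 and 71.9 in the young and at 90.3, 88.6 and 92.5 in the middle-aged libraries (77.5 ± 5.27 against 90.4 ± 1.92, exact permutation p = 0.1). All 3 middle-aged values lay above all 3 young ones. The shared-region ranks were 65.2, 65.7 and 65.8 in the young libraries and 79.9, 76.4 and 83.8 in the middle-aged ones, a difference of 14.4 (65.6 ± 0.351 against 79.99 ± 3.70, exact permutation p = 0.1). A second TSS region, 0.80 kb inside the gene from the same start, ranked at 42.1, 63.0 and 21.6 in the young and at 40.6, 63.6 and 59.4 in the middle-aged libraries, and these overlapped, with a shared-region difference of -1.51. The difference of 14.4 at the best peak lay at the 94.7th percentile of the 10546 genes with a TSS region among those called in all 6, whose median difference was 0.979.

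The fold over local background at the Atf3 TSS was 6.64, 8.14 and 7.07 in the young and 10.4, 9.98 and 11.2 in the middle-aged libraries, 1.45 times higher by the ratio of means. On the log2 scale the difference was 0.54, against a median of 0.24 over all 10569 genes, so Atf3 was 0.30 above that general shift. Fosb was 0.16 above it, and the other 5 members lay below it (Junb -0.05, Fosl2 -0.06, Fos -0.08, Jun -0.09 and Jund -0.13). The Atf3 peak sits at the start of the shorter protein-coding form (position 191183340 on chromosome 1, minus strand), inside an intron of the longer form. No region came within 1 kb of the start of the longer form at 191218039. The 250 bases upstream of this start held 5 GC boxes, 4 of which are in the printed stretch, while 32.7% of RefSeq promoters held at least 1.

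The folds at the other TSS peaks were closer between ages. Fosb had 6.68, 9.48 and 6.48 in the young and 10.3, 9.16 and 9.95 in the middle-aged libraries, with young 2 inside the middle-aged range. Junb had 5.22, 5.32 and 4.43 against 5.49, 5.36 and 6.21, which did not overlap. Mean folds in the young and middle-aged libraries were 5.43 and 6.02 at Fos, 7.35 and 8.27 at Fosl2, 8.51 and 9.36 at Jun and 8.40 and 9.05 at Jund, each with overlapping groups. Summit height over the genome-wide background (log2) was apart and higher at Fos, Fosb, Fosl2, Jun, Junb and Atf3, with overlap at Jund. Mean differences were 0.35 at Fos, 0.65 at Fosb, 0.48 at Fosl2 and 0.55 at Jun. They were 0.55 at Junb, 0.48 at Jund and 0.81 at Atf3, against a median of 0.48 over all 10569 genes. The share of all genes apart by height was not computed.

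Batf and Batf3 encode small bZIP proteins best known in lymphocytes and dendritic cells. Batf had no TSS peak in any of the 6 libraries. Batf3 had one in young 1, young 2, middle-aged 2 and middle-aged 3, at ranks of 18.8, 17.6, 21.2 and 40.5, all in the lower part of their lists. The Batf3 folds ran from 4.17 to 5.80.

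Counted over the members, 3 of the 7 called in all 6 libraries (Fosl2, Junb and Atf3) had whole-list ranks that were higher in every middle-aged library than in any young one, where 30.6% of all genes did. Without young 2 the count was 5, and without middle-aged 2 it was 6. Fewer values need to be apart there, and the share of all genes was not computed for these omissions. With all 6 libraries no member was lower in this way, as for 0.274% of all genes. The median rank difference was 11.6 over the 7 members and 4.97 over all genes. Without young 3 these medians were 4.81 and 2.21, and by shared-region rank they were 1.88 and 0.979. By fold, 2 of 7 (Junb and Atf3) were apart and higher, against 38.4% of all genes, and 0 were lower, against 0.114%. By shared-region rank, 1 of 7 (Atf3) was apart and higher, against 9.37% of all genes, and 0 were lower, against 3.73%.

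The 10 loci held 77 of the 63840 regions of the series (peaks of the 6 lists merged where they overlapped). Of these, 13 lay at a member's own TSS, 12 at the TSS of another protein-coding gene inside the window, and 52 away from any such TSS. In all, 36 were called in all 6 libraries, which was 46.8% of the locus regions and 35.1% of all regions. By contrast, 17 were called in 1 library, or 22.1% of the locus regions and 23.0% of all regions, and each of these was called in a middle-aged library (17.1% of all regions). Called in every library but young 3 were 6, or 7.79%, where 8.60% of all regions were.

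**Figure D2:**
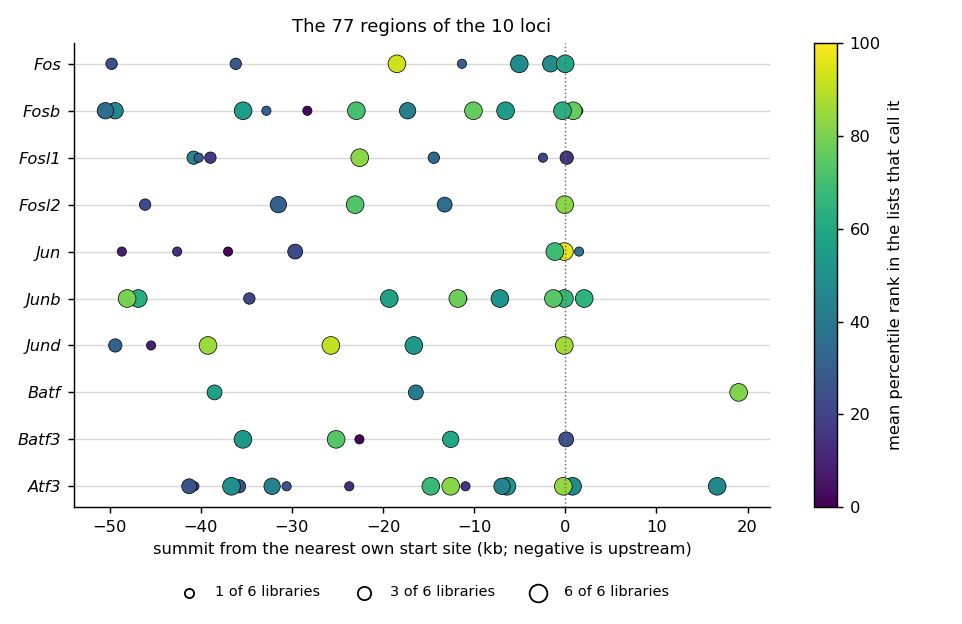
The 77 regions placed by the distance of their summit from the member's nearest protein-coding TSS (x axis, kb, negative upstream), one row per gene. Point size gives the number of libraries that called the region and colour its mean percentile rank; the strongest points away from 0 are at Fos (-18.5 kb, mean rank 92.7) and at the TSS of a neighbouring gene in the Jund window (-25.7 kb).

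The density of regions per 100 kb of window was highest at Fosb (20.9), Junb (18.4) and Atf3 (15.3), at the 99.8th, 99.5th and 98.2nd percentiles of all protein-coding genes. Jun (13.2), Fos (13.1), Fosl1 (11.99) and Jund (11.6) followed. Batf3 (8.18), Fosl2 (6.94) and Batf (4.14) had the fewest, and the median gene had 3.87. The Fosb and Junb windows hold the promoters of close neighbours: 3 of the 12 Fosb regions and 5 of the 10 Junb regions lay at such a TSS, while none of the 15 Atf3 regions did.

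The number of called peaks over all 10 loci was 49, 51 and 42 in the young and 57, 63 and 62 in the middle-aged libraries (47.3 ± 4.73 against 60.7 ± 3.21, exact permutation p = 0.1), 1.28 times more. The groups did not overlap. Per 1000 peaks of the list the values were 1.36, 1.16 and 1.52 in the young and 1.23, 1.35 and 1.28 in the middle-aged libraries (exact permutation p = 0.6), which did overlap. Of the single loci, Fosb had 8, 7 and 8 peaks in the young and 9, 11 and 9 in the middle-aged libraries, and no other locus had groups that did not overlap. The counts of single loci were not corrected for list length. The share of all genes' windows without overlap was not computed.

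**Figure D3:**
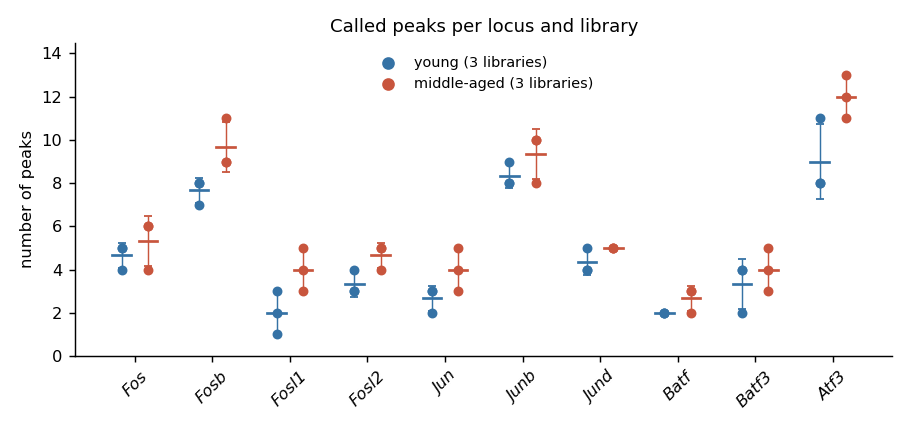
Number of called peaks per locus (y axis) for each member (x axis), 1 point per library, with the mean and SD of each age. Atf3 had 8 to 11 peaks in the young and 11 to 13 in the middle-aged libraries, and Batf had 2 or 3 in every library.

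In some loci a region away from any protein-coding TSS ranked above the member's TSS peak, or the member had no TSS peak. Only position in the window places these regions with a member, and starts of noncoding genes were not set aside. At Fos the region at -18.5 kb (chr12:85454912-85455772) ranked at 91.3, 90.9 and 91.7 in the young and at 93.6, 94.3 and 94.3 in the middle-aged libraries. These are above the Fos TSS peak in every library. The whole-list ranks did not overlap between ages, and the shared-region ranks did (difference 1.44, exact permutation p = 0.7). The printed stretch of this region lies on an exon of the RefSeq noncoding gene Gm38543. Its fold was 11.5, 12.4 and 12.6 in the young libraries and 14.4, 14.9 and 15.1 in the middle-aged ones.

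At Batf, which had no TSS peak, an intronic region at 19.0 kb (chr12:85705184-85705925) ranked at 71.3, 85.1 and 79.5 in the young and at 83.2, 78.6 and 88.4 in the middle-aged libraries. The groups overlapped (78.6 ± 6.94 against 83.4 ± 4.91). At Atf3 the strongest region away from the promoter lay at -12.6 kb from the start of the longer form, with ranks from 77.7 to 86.2 and overlapping groups. For Fosb the strongest one lay at -10.1 kb with ranks from 55.0 to 84.5, for Fosl2 at -23.1 kb with ranks from 64.3 to 76.0, and for Batf3 at -25.1 kb, in the neighbouring gene Nsl1, with ranks from 65.1 to 79.7. The strongest Jun one, at -29.6 kb, was weak, with ranks of 11.8 to 40.5 in the 4 libraries that called it.

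Jund had the largest difference of these regions. Its region at -16.6 kb (chr8:70682129-70682607) ranked at 34.2, 52.4 and 24.8 in the young libraries and at 68.6, 71.5 and 68.0 in the middle-aged ones. All middle-aged values lay above all young ones, by a mean of 32.2 on the whole-list rank (37.2 ± 14.05 against 69.3 ± 1.87, exact permutation p = 0.1) and of 21.9 on the shared-region rank (15.9 ± 2.89 against 37.8 ± 3.90, exact permutation p = 0.1). Its fold was 4.71, 6.17 and 5.67 in the young and 8.50, 8.69 and 8.54 in the middle-aged libraries. An AP-1 site lies across its summit, at -2 to 4 bases from it. The Jund promoter itself, as given above, overlapped between ages.

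Regions called in all 3 libraries of one age and in none of the other were rare. There was 1 among the 77, called in all 3 middle-aged libraries, as were 2.21% of all 63840 regions. Counting regions called in 1, 2 or 3 middle-aged and no young libraries, there were 21 (27.3%), beside 25.4% of all regions. It lies at -40.8 kb from Fosl1 (chr19:5406539-5406948), with ranks of 43.4, 45.6 and 48.7 and folds of 5.56, 5.53 and 5.96. The printed stretch overlaps an exon of 4930481A15Rik, a noncoding gene in both annotations, and holds a GC box and no AP-1 site. No region was called in all 3 young and no middle-aged libraries, against 0.036% of all regions.

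Of the 36 regions called in all 6 libraries, 14 (38.9%) had whole-list ranks that were higher in every middle-aged library than in any young one, beside 24.3% of all 22403 such regions. Without young 2 the count was 23, and without middle-aged 2 it was 22. Fewer values need to be apart there, and the share of all regions was not computed for these omissions. With all 6 libraries none of the 36 was lower, against 0.495%. Of the 14, 4 lay at a member's own TSS, 7 at another gene's TSS and 3 away from both. By shared-region rank the count was 5 (13.9%) higher, against 6.56% of all regions, and 0 lower, against 6.53%. The mean shared-region rank was higher in the middle-aged libraries for 22 of the 36, or 61.1%, and for 50.7% of all regions, and the median difference over the 36 was 1.13.

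Those 5 were the Atf3 TSS region, the Jund region at -16.6 kb and 3 others. At Junb a region at -11.8 kb, at the TSS of Hook2, ranked at 67.8, 78.6 and 52.4 in the young and at 89.3, 85.5 and 91.4 in the middle-aged libraries, a shared-region difference of 26.2 (50.2 ± 7.79 against 76.4 ± 5.91, exact permutation p = 0.1). Within the annotated Junb gene, downstream of its coding transcript, a region at 2.08 kb had shared-region ranks of 35.3 ± 1.10 and 43.9 ± 7.61 (exact permutation p = 0.1). At Fosl1 a region at -22.6 kb, at the TSSs of Drap1 and AI837181, ranked at 81.6, 81.1 and 64.6 in the young and at 88.0, 89.2 and 92.4 in the middle-aged libraries. Its shared-region difference was 15.2 (63.6 ± 6.82 against 78.8 ± 4.28, exact permutation p = 0.1). The Hook2 and Drap1 regions lie at the promoters of those genes, and accessibility there cannot be assigned to Junb or Fosl1.

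**Figure D4:**
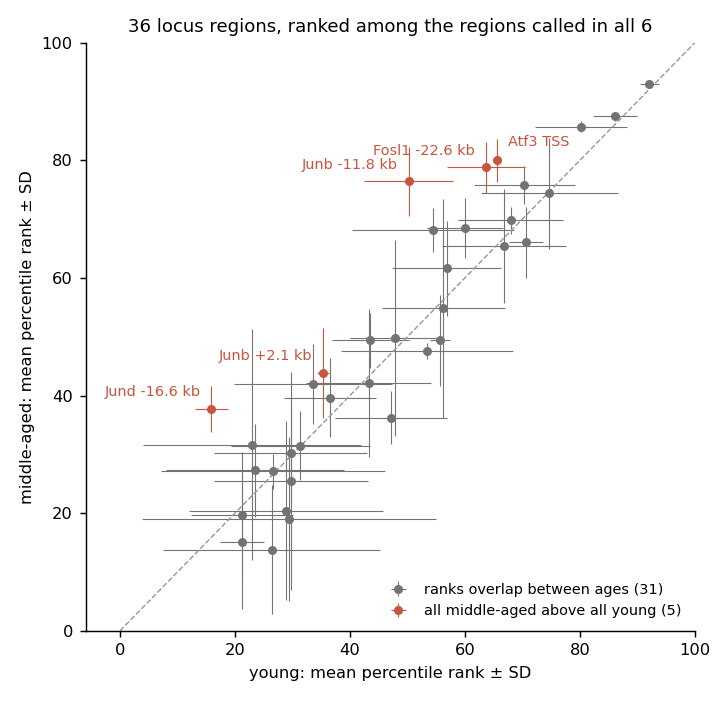
Mean percentile rank of the 36 locus regions in the middle-aged libraries (y axis) against the young libraries (x axis), ranked among the 22403 regions called in all 6 libraries; bars are SD over 3 libraries and the dashed line marks equal ranks. The 5 red points, labelled by member and distance, had all middle-aged ranks above all young ranks, and none lay apart in the other direction.

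Whether the loci of AP-1 genes hold AP-1 sites was described within 150 bp on either side of each summit. Of the 52 regions away from any protein-coding TSS, 11 (21.2%) held TGAGTCA on either strand, beside 18.3% of all 47721 such regions. The site began within 6 bases of the summit at Jund (-16.6 kb), Fosb (-17.3 kb), Jun (-29.6 kb) and Atf3 (-6.40 kb). The Fosb region at -17.3 kb ranked at 35.4 and 29.7 in young 1 and young 2 and at 65.4, 35.2 and 51.0 in the middle-aged libraries, and was not called in young 3. The GC box was in 26.9% of the 52 and in 9.11% of all such regions. The CArG box was in 1.92% and 2.05%, and none of the 52 held the cAMP response element, against 0.480% of all such regions. A match describes letters only, and binding was not measured.

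Genes around the AP-1 factors were described by list. Of all 21853 protein-coding genes, 10569 had a TSS peak in all 6 libraries. Of 12 related bZIP genes, 11 had a TSS peak in all 6 libraries, and 3 of these had higher whole-list ranks in every middle-aged library, the largest difference being at Atf4 (75.2 to 87.6 in mean rank), a stress-response factor. Of 10 immediate early genes, 9 were called in all 6 and 4 were apart and higher, led by Ier2 (44.5 to 68.1). Egr3 had a TSS peak in no young and in 2 middle-aged libraries. Of 10 upstream kinases and factors, all 10 were called in all 6 and 5 were apart and higher, led by Mapk3 (50.4 to 83.3), the gene of the ERK1 kinase. Of 10 commonly named AP-1 targets, 5 were called in all 6 and 1 was apart and higher, Plaur (48.4 to 66.7), which encodes the urokinase receptor. Ccnd1, which encodes cyclin D1, had a TSS peak in no young and in 2 middle-aged libraries. None of these lists had a gene that was apart and lower by whole-list rank, and 30.6% of all genes were apart and higher. By shared-region rank the counts apart and higher were 1 of 11, 1 of 9, 2 of 10 and 0 of 5 in the same order of lists, against 9.37% of all genes. Of the genes that led these lists, Atf4 and Mapk3 were apart on that scale, while Ier2 and Plaur overlapped.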

How the data were processed

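SSPC ATAC-seq libraries (3 young, 3 middle-aged) were used as deposited. Per the study's methods, the authors converted base calls with bcl2fastq, mapped reads to mm10 with Bowtie2, removed duplicates with Sambamba and called peaks with MACS, and each deposited list comes from 1 library. The deposited lists give the fold enrichment over local background (a ratio) and the −log10 p-value and −log10 q-value of each peak. The study compared ages with DiffBind on reads; the lists hold no reads, so exact permutation tests over libraries were used.

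Percentile ranks by −log10 q were computed within each list, and again among regions called in all 6 libraries. TSSs and gene bodies were those of GENCODE M21 without the mitochondrial chromosome, and overlap meant 1 bp or more. In every library all peaks gave whole numbers for the summit height when solved from fold and p-value (tolerance 0.01), which fixed the genome-wide background. The scripts were tested on simulated data (python 3.11.15, pandas 2.3.3, numpy 2.4.6, scipy 1.17.1).

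The members and lists were chosen with earlier results of these data known. All 10 members are named. In each locus the TSS region, the strongest region outside TSS windows called in at least 3 libraries and any region of 1 age only are named. From the other lists, genes whose number of libraries differed by 2 or more and the gene with the largest rank difference without overlap are named. Marker genes are given as counts with examples chosen after their values were seen. Alternatives covered a −log10 q minimum of 5, equal list lengths (27628 peaks), rank by fold, TSS windows of 500 bp and 2 kb, upstream spans of 20 and 100 kb, a 50% overlap, narrower motif windows, each library left out, pairing by replicate number and summit height.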

Additional observations from a re-analysis of the deposited data

How the results depend on the processing

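Under the 14 alternative settings that gave values for single members, 166 of 168 rank or fold differences at the TSS kept their direction. The exceptions were Jund, whose rank difference of 3.07 became -0.24 with equally long lists and -0.33 among the regions called in all 6 libraries. Many of the 168 values only repeat the main ones, so their direction was fixed. The folds were identical at the −log10 q minimum and with equally long lists, and the other TSS windows mostly gave the same peaks. The mean whole-list rank was also higher in the middle-aged libraries for 93.9% of all genes. No p could pass 0.05 under any setting. Following the same region in every library, an alternative chosen after seeing the data, kept all 7 directions. The values of Fos, Fosl2, Jun, Jund and Atf3 were the main ones again there, so only Fosb and Junb could differ. The count of members apart and higher (3) became 1 with equally long lists and 1 among regions called in all 6. It ran from 3 to 6 when each library was left out, with 5 without young 2 and 6 without middle-aged 2. The count of locus regions apart and higher (14) became 5 with equally long lists, 5 among regions called in all 6, 8 with 20 kb upstream and 22 with 100 kb upstream. It ran from 14 to 23 when each library was left out, with 23 without young 2 and 22 without middle-aged 2. These counts need fewer libraries to be apart when 1 is left out. For them and for the next count, no share over all genes or regions was computed with a library left out, with equally long lists or at a −log10 q of at least 5. Regions called in all 3 middle-aged and no young libraries (1) became 3 at a −log10 q of at least 5, 0 with 20 kb upstream and 2 with 100 kb upstream, and ran from 1 to 3 when each library was left out (2 without young 1, young 2, young 3 or middle-aged 2, and 3 without middle-aged 1). Replicate numbers did not pair the libraries (correlations of deviations over 22403 regions 0.0028, -0.0031 and -0.041), and with the replicate block the difference in peaks over the loci was 13.3 (exact sign permutation p = 0.25, the smallest possible); in a balanced pairing the block leaves every mean difference as it is and so tests no direction. That difference of 13.3 peaks was 2.67 (exact permutation p = 0.5) with equally long lists, 4.67 with 20 kb upstream and 19 with 100 kb upstream, and ran from 10.7 to 15.2 when each library was left out. The share of distal locus regions with an AP-1 site was 15.4% within 100 bp of the summit, beside 15.8% of all such regions, and 22.6% among regions called in at least 3 libraries, beside 19.5%.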

Other observations

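By shared-region rank, and singled out after their values were seen, a pair of immediate early genes stood apart in opposite directions. Dusp1, which encodes a phosphatase of the MAP kinases, had a mean rank of 43.6 in the young and 56.5 in the middle-aged libraries. Nr4a1, which encodes an orphan nuclear receptor, had 60.6 in the young and 42.5 in the middle-aged ones, all 3 below the young values, which 3.73% of all genes showed, while 9.37% were apart and higher, as Dusp1 was.

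Within the Atf3 locus the 7 regions called in all 6 libraries had shared-region differences (middle-aged minus young) of both signs. The Atf3 TSS region was 14.4 higher in the middle-aged libraries. The region at -6.40 kb from the start of the longer form was 8.69 higher. Regions at 0.80 and -14.8 kb, counted from the start of the shorter form, were at -1.51 and -10.9. Those at -12.6, 16.7 and -36.6 kb, counted from the start of the longer form, were at -4.61, -6.001 and -10.4. The regions at 0.80, -14.8 and 16.7 kb have their summits in introns of the gene. The groups overlapped at each region but the one at the promoter. The difference between regions of the locus was not tested.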
